A study of Glycine max with 8 samples.

Results

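The transcripts described here were chosen for a rise in the second of 2 droughts without one in the first. RNA from the leaves of soybean (cultivar Daepoong) was hybridised to 8 single-dye arrays, with 2 biological replicates for each of 4 conditions. WT1 were seedlings grown with water and DR1 were seedlings left without water for 4 days after 7 days of growth. WT2 plants had gone through the first drought and then had water for 1 day, and DR2 plants were taken after a further 4 days without water. The sample labels give the first drought as 4 hours, whereas the treatment protocol and the paper give 4 days, which was used. The labels name no transgene. WT2 and DR2 plants share the history of a first drought, so that no plant of the same age without it was measured. A first slide held WT1 with DR1 and a second held WT2 with DR2. DR2 against WT2 and DR1 against WT1 are therefore comparisons within a slide, whereas in DR2 against DR1 and WT2 against WT1 slide and condition cannot be told apart.

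The members were selected on measured values. A transcript was taken when, in the authors' normalized table, its mean log2 intensity differed by less than 0.75 between DR1 and WT1 and was over 4.5 higher at DR2 than at both DR1 and WT2. This rule held for 154 of 60386 transcripts, or 0.256% of those with a soybean locus name, from 147 loci. It used the same arrays as the comparisons DR1 against WT1, DR2 against WT2 and DR2 against DR1, so the values in these 3 comparisons describe the members and test nothing. WT2 against WT1 was not named in the rule, but the rule used the values of both, so this comparison is given as a description too. Another 184 transcripts passed both second-drought limits but were already 0.75 or more higher at DR1, and 9 passed both but were 0.75 or more lower at DR1.

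Plants that dry out close their stomata, make abscisic acid and switch on protective proteins such as dehydrins. A transcript whose response to a repeated drought differs from its response to the first is called a drought memory transcript. Such a difference can be a stronger, a weaker or a new response. The members were chosen for a rise at DR2 without one at DR1. With no plant of the same age that lacked a first drought, an effect of the first drought and one of age cannot be told apart. The paper took its memory transcripts from those already changed 4-fold at DR1, which the rule here leaves out.

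Only 9 members, from 8 loci, could be given a protein domain from the study's annotation, and 3 of these are listed themselves while the others take it from another transcript of the locus. None of the 147 loci could be matched to a gene record of the RefSeq table. The other members are therefore named by locus only.

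In all 154 members both DR2 arrays lay above the other 6 arrays. The lower DR2 array exceeded the highest of the other 6 arrays by 1.12 to 8.29, with a median gap of 4.43 on the log2 scale. The same full separation was found for 30.3% of the 55087 transcripts tested. The median intensity of the members was 4.46 and 4.60 on the WT1 arrays, 4.73 and 4.55 on the DR1 arrays, 4.33 and 4.60 on the WT2 arrays, and 10.80 and 9.75 on the DR2 arrays. The median of all transcripts tested stayed between 7.91 and 7.97 on every array.

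**Figure D1:**
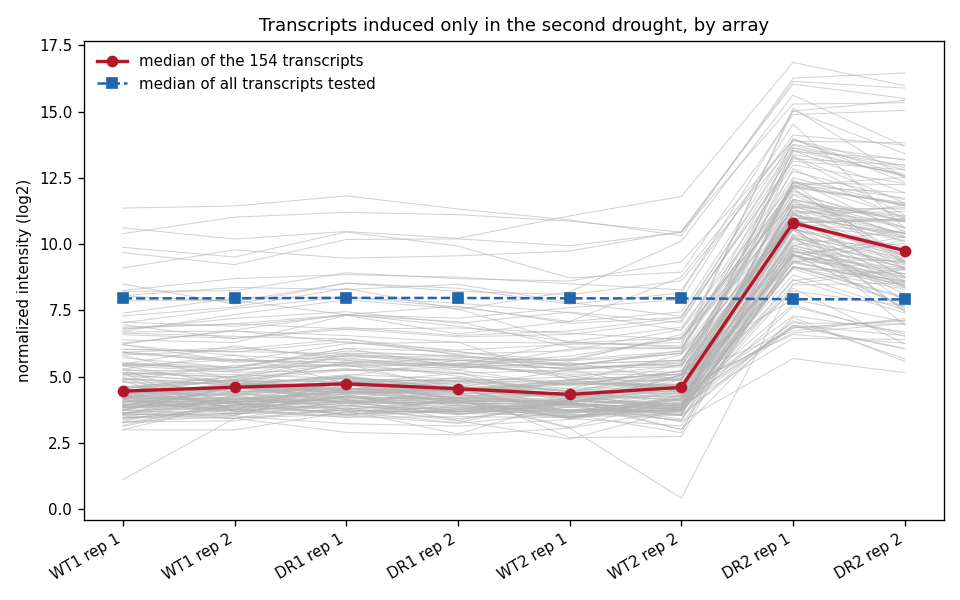
Normalized log2 intensity (vertical axis) of the 154 members on the 8 arrays (horizontal axis, 2 replicates per condition); each grey line joins the values of 1 transcript, red marks their median and blue the median of all transcripts tested. The member median lies between 4.33 and 4.73 on the 6 arrays of WT1, DR1 and WT2 and at 10.80 and 9.75 on the DR2 arrays.

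From the scanner signals normalized again here, the members were higher at DR2 than at WT2 by a median of 5.47 on the log2 scale (44.3-fold), from 1.75 to 9.26, and higher than at DR1 by a median of 5.20 (36.7-fold), from 1.73 to 8.88. The median standard error of a difference was 0.35. Calls required over 4-fold change and a limma adjusted p below 0.05, and 152 of 154 members were called higher at DR2 than at WT2, where 13.1% of all those tested were called higher and 15.2% lower. The count was also 152 at DR2 against DR1, where 6.86% of all transcripts were called higher and 8.45% lower. Since the rule used both comparisons, nothing is read from these counts. Over all transcripts tested the median differences were -0.001 and -0.08.

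The members left outside the calls were Glyma.05G047100-1 and Glyma.05G123900-1, which were named after their values were seen. Glyma.05G047100-1 measured 3.45 and 3.44 at WT1, 3.58 and 3.79 at DR1, 4.03 and 3.30 at WT2, and 5.69 and 5.15 at DR2. Both transcripts are means over 3 probes, of which 1 was over 4-fold higher at DR2 than at WT2 and at DR1.

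In the first drought the members differed from WT1 by a median of 0.12, from -0.68 to 0.95, where the rule had held the authors' values under 0.75. None was called at DR1, where 3.62% of the 55087 were called higher and 3.85% lower. An unadjusted limma p below 0.05 was found for 3.9% of the members beside 40.7% of all transcripts tested. The standard error behind these p values also takes in the wider DR2 replicates of the members. After watering, WT2 against WT1 gave a median of -0.03 over the members, from -1.40 to 1.70, beside -0.06 over all transcripts tested. No member was called, where 0.387% of all transcripts were called higher and 0.049% lower. The rule held WT1 near DR1 and WT2 far below DR2, so nothing is read from this count. Many of these values were also not measured above background. On both WT1 arrays 75 members were not above it, on both DR1 arrays 65, and on both WT2 arrays 65. The shares over all transcripts tested were 7.14%, 5.09% and 3.97%.

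**Figure D2:**
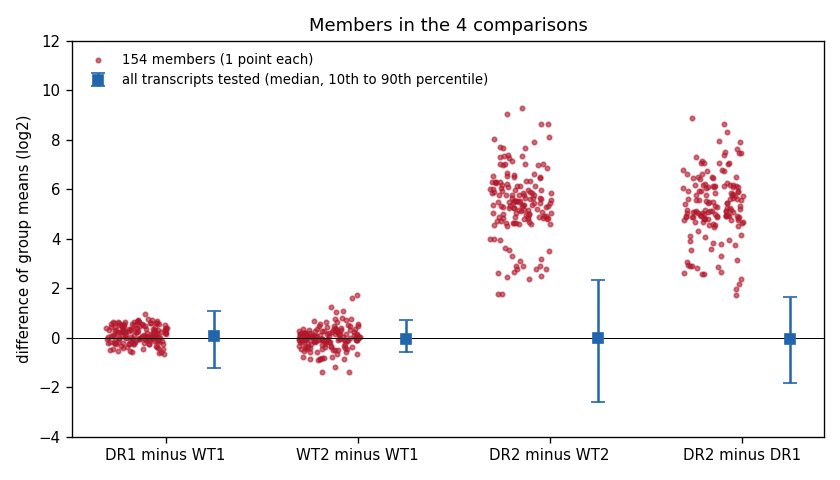
Differences of group means on the log2 scale (vertical axis) in 4 comparisons (horizontal axis) for the 154 members (red points) and for all transcripts tested (blue square, median; bars, 10th to 90th percentile). Members centre on 0.12 and -0.03 in the first 2 comparisons and on 5.47 and 5.20 in those with DR2, where the rule selected them.

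The members named next, both above background on all 8 arrays, were chosen after their values were seen. Glyma.07G215500-1 measured 4.86 and 5.43 at WT1 and 6.32 and 6.10 at WT2, a difference of 1.06. Glyma.13G189700-1 measured 6.64 and 6.52 at WT1 and 5.39 and 5.42 at WT2, a difference of -1.18 in the other direction. The lowest differences, -1.40 in Glyma.15G114000-1 and in Glyma.01G186500-1, belonged to members not above background on any WT1 or WT2 array. Of all members, 72 lay above WT1 after watering and the others below.

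Among the members with a domain, Glyma.09G126200-1 carries Glyco_hydro_18, the catalytic domain of a family of chitinases, enzymes that cut chitin of fungal walls. It measured 7.29 and 7.63 at WT1, 8.33 and 7.54 at DR1, 8.21 and 10.11 at WT2, and 15.62 and 13.70 at DR2. Both DR2 arrays were well above the rest, by a mean of 5.50 over WT2, and its 2 WT2 arrays differed by more than the means of WT2 and WT1 did. Its WT2 against WT1 difference of 1.70 was the highest of the members (SE 0.72). Of the 5 tested transcripts listed with this domain, Glyma.17G076100-1 was the only other one called higher at DR2 than at WT2, by 3.27, and it had been called higher at DR1 already, by 2.04. Glyma.10G227700-1 was called lower at DR1, by -3.15, and stood at -0.41 at DR2 against WT2.

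Glyma.12G024000-1 carries Glyco_hydro_100, the domain of alkaline and neutral invertases, which split sucrose into glucose and fructose inside the cell. It measured 5.92 and 6.09 at WT1, 5.75 and 5.61 at DR1, 5.46 and 5.62 at WT2, and 12.12 and 11.51 at DR2. Only DR2 stands apart, by 6.28 over WT2 (77.5-fold). The first drought differed from WT1 by -0.32, a mean over probes at 0.40 and -1.05. Glyma.12G024000-2 of the same locus, not a member, was called higher at DR2 against WT2 too, by a fitted 4.26. The other tested transcript listed with this domain, Glyma.04G005700-2, measured 4.02 and 3.73 at WT1 and 6.16 and 5.88 at DR1, and 4.28 and 7.15 at DR2. That transcript was not called in any of the 4 comparisons, and its DR2 arrays spread over nearly 3 log2 units.

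A zinc finger of the zf-C2H2_6 type, a DNA-binding fold found in many plant stress regulators, is listed for Glyma.03G173300-1. It measured 4.80 and 4.74 at WT1, 4.995 and 4.563 at DR1, 4.80 and 5.83 at WT2, and 10.72 and 9.03 at DR2, and it sat just inside the limit at DR2 against WT2. The other 4 tested transcripts listed with this domain were all called higher at DR1, by 2.16 to 3.37, where 75.3% of annotated transcripts were called. Of these, 3 were called higher at DR2 against WT2 too, while Glyma.06G201200-1 rose by 2.56 at DR1 and lay at -0.02 at DR2 against WT2.

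The size of the induction differed between the DR2 arrays. DR2 replicate 1 was higher than replicate 2 in 132 of the 154 members (85.7%), by a median of 0.88, whereas it was higher in 45.6% of all transcripts tested. The replicates of the members differed by over 2-fold in 69 cases and by over 4-fold in 20. Glyma.10G253300-1_UE showed the widest gap, 14.53 against 10.61, followed by Glyma.18G003700-1 with 10.34 against 6.94 and Glyma.03G189200-1 with 10.65 against 7.46. The widest gap the other way was Glyma.01G171700-1, with 9.31 against 10.16. Within replicate number 1 the median of DR2 minus WT2 was 6.06 and 152 members exceeded 2, and within replicate number 2 it was 5.05 and 151 exceeded 2. Without DR2 replicate 2 the rule was met by 269 transcripts, and without DR2 replicate 1 by 112, so 1 array moved the size of the set by over 1.5 times. The arrays also differed in brightness, with a median spot signal of 87 on DR2 replicate 1, the lowest of the 8, and 117 on DR2 replicate 2, and the part of this in the result was not tested.

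**Figure D3:**
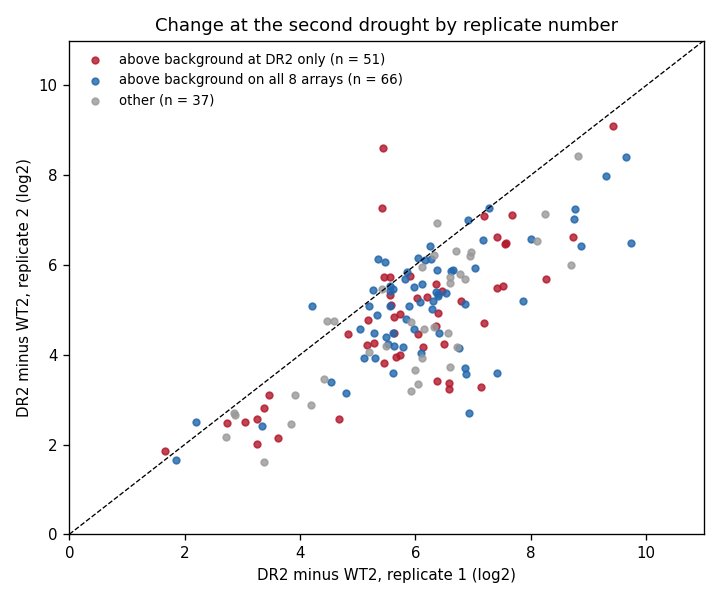
Difference between DR2 and WT2 within replicate number 1 (horizontal axis, log2) and replicate number 2 (vertical axis, log2) for the 154 members, coloured by the conditions in which they were above background. Most points lie below the dashed line of equal values, with medians of 6.06 and 5.05.

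A part of the set was measured above background only in the second drought. In 51 members no array of WT1, DR1 or WT2 had a probe well above background, as called by the reading software, while both DR2 arrays did. Such a pattern was found for 679 of all transcripts tested, of which the members are 7.51%. Another 66 members had a probe above background on each of the 8 arrays, and their means can still include dim probes. Neither WT2 array was above background for 65 members, beside 3.97% of all transcripts tested. For these 65, where the WT2 signal is only a limit, DR2 exceeded WT2 by at least 1.11 to at least 8.71, with a median limit of 4.86. With limits in place of fitted values, the median over the 154 members was 5.32 at DR2 against WT2 and 5.09 at DR2 against DR1. The 66 members with a probe above background on every array had a fitted median of 5.59 at DR2 against WT2, and the 51 had one of 5.34.

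The 12 members with the largest differences in the authors' table carry no annotation in the sources used here. Glyma.06G017400-1 measured 4.21 and 4.64 at WT1, 4.58 and 4.19 at DR1, 3.96 and 3.54 at WT2, and 13.38 and 12.64 at DR2. No array outside DR2 was above background for this transcript, so its change over WT2 is at least 418-fold and over DR1 at least 344-fold. Glyma.04G035000-1 was above background on all 8 arrays, at 4.44 and 4.59 at WT1, 4.52 and 4.56 at DR1, 4.30 and 4.47 at WT2, and 13.95 and 12.88 at DR2. Its 6 arrays outside DR2 span under 0.3 on the log2 scale, whereas DR2 was 9.03 over WT2 and 8.88 over DR1.

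Glyma.02G020900-1 had the same form, with 4.43 and 4.42 at WT1, 4.79 and 4.72 at DR1, 4.25 and 4.59 at WT2, and 13.56 and 12.58 at DR2. Its probes rose over WT2 by 9.42, 9.63 and 6.89, and the last was the brightest at WT2, at 6.26 and 6.25. The other probes lay below the lowest signal above background on both WT2 arrays, so the rise of the mean rests partly on dim probes. Glyma.07G240100-1 measured 4.20 and 4.09 at WT1, 4.97 and 4.59 at DR1, 3.49 and 3.81 at WT2, and 12.31 on one DR2 array and 12.24 on the other. Its DR2 arrays agree closely, and its change over WT2, where it was not above background, is at least 251-fold. Glyma.10G045400-1 measured 5.71 and 5.34 at WT1, 5.97 and 5.76 at DR1, 5.40 and 5.99 at WT2, and 15.13 and 12.48 at DR2. The DR2 arrays of this transcript differ by over 2 log2 units, and each still lies far above the other 6 arrays.

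Glyma.03G201100-1 was above background on all 8 arrays, at 6.72 and 7.35 at WT1 and 7.90 and 7.56 at DR1, and it stood at 6.27 and 6.16 at WT2 and at 15.04 and 13.41 at DR2. Glyma.02G072200-1 measured 4.88 and 4.85 at WT1, 4.81 and 4.86 at DR1, 4.46 and 5.13 at WT2, and 13.33 and 11.55 at DR2. For both the DR2 arrays stand clear of the other 6. Glyma.19G169200-1 rose over WT2 by at least 141-fold, Glyma.19G233900-1 by at least 167-fold, Glyma.16G032200-1 by at least 108-fold and Glyma.09G006200-1 by at least 91.4-fold. Each of these was not well above background on either WT2 array and was on both DR2 arrays, and in each DR2 replicate 1 was the higher. Glyma.09G006200-1 had the widest spread of them, 12.28 against 9.36.

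Glyma.07G258200-1, first in the authors' table, has 2 probes that differ. One probe measured 3.36 and 3.64 at WT2 and 13.61 and 13.39 at DR2, and the other measured 3.70 and 3.90 at WT2 and 4.61 and 4.37 at DR2. The second probe was not above background on either DR2 array, so the mean over both probes lies far below the probe with the high signal. Since no WT2 array was above background, the transcript was higher than WT2 by at least 4.69 on the log2 scale.

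Most members were read by more than 1 probe. In the paper's design most probes run from the end of the coding sequence into the untranslated region after it. Of the 143 members with more than 1 probe, 120 showed over 4-fold higher signal at DR2 than at both WT2 and DR1 in every probe. The median range between the probes of a member was 1.00 on the log2 scale. The other 23 members had 30 probes at or under 4-fold in at least 1 of these comparisons, and all 30 lacked a call above background on at least 1 DR2 array. Glyma.02G065700-1 illustrates this, with probe differences of 6.73, 5.38 and -0.21 at DR2 against WT2. When probes without a detection call in both replicates of any condition were left out, the difference of Glyma.05G123900-1 from WT2 went from 1.76 to 5.42. A probe can pass this filter through its DR2 signal alone, so the probes it drops are those that stayed dim at DR2 too, and no count of calls is read from it. Means over these probes departed from the authors' table by over 1 at DR2 in 6 members, beside 31 for means over all probes. That setting was chosen after the data were seen. The counts by probe cover the rise at DR2 only, and agreement of probes at DR1 against WT1 was not counted. Probes can differ there too: those of Glyma.06G220800-1, named after its values were seen, stood at -2.22, 2.53 and 1.31. The DR1 value of such a member is a mean over probes of opposite sign.

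A locus can give rise to several transcripts, and the array reads some of them by probes in an exon that only 1 of them holds (a unique-exon entry, marked UE). Such entries made up 11 of the 154 members (7.14%), beside 8.86% of all transcripts tested. At 7 loci 2 entries are members, and at Glyma.03G238800, Glyma.05G238100, Glyma.15G182600 and Glyma.19G169200 these are a transcript and its own unique-exon entry. At 18 loci 1 or more other entries in the authors' table, transcripts or unique-exon entries, are not members. Of these 22 other entries 20 were tested, and 15 were called higher at DR2 against WT2 and 14 at DR2 against DR1, while 2 were called higher at DR1. Only the DR1 limit kept 6 of the 22 out of the set, and 16 missed a second-drought limit.

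The clearest differences within a locus were named after their values were seen. Glyma.05G082400 is annotated as a disease resistance protein with an NB-ARC domain, the nucleotide-binding switch of the intracellular receptors that detect pathogens. Its transcript Glyma.05G082400-1 measured 4.06 and 3.98 at WT1, 7.13 and 6.65 at DR1, 4.91 and 4.52 at WT2, and 13.03 and 13.28 at DR2, and so was called higher in both droughts, by 2.87 at DR1 and 8.44 at DR2 against WT2. The members Glyma.05G082400-2 and Glyma.05G082400-1_UE stood at 0.11 and 0.69 at DR1 and were higher at DR2 than at WT2 by at least 4.91 and at least 4.54. Neither was well above background on any array of WT1, DR1 or WT2, so their DR1 differences were not measured above background.

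Glyma.15G078300 encodes a protein with a NAM domain, the DNA-binding part of NAC transcription factors, several of which act in drought in other plants. Its member Glyma.15G078300-1 measured 6.21 and 5.58 at WT1, 6.25 and 6.30 at DR1, 4.88 and 5.08 at WT2, and 11.27 and 10.39 at DR2. The unique-exon entry of the same transcript measured 14.89 and 15.02 at WT1, 17.14 and 17.00 at DR1, 15.73 and 14.59 at WT2, and 16.63 and 17.17 at DR2. This entry was called higher at DR1, by 2.11, and at DR2 it differed from DR1 by -0.17. Among the 27 tested transcripts listed with a NAM domain, 22 were called higher at DR1 and 20 at DR2 against WT2, and none of the 27 is itself a member. Of all annotated transcripts tested, 75.3% were called at DR1, so nothing is read from these counts.

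Glyma.12G071700 is listed with the Ribosomal_L28 family, proteins of the large ribosomal subunit. Transcript Glyma.12G071700-1 measured 11.17 and 10.93 at WT1, 11.02 and 11.01 at DR1, 11.31 and 11.81 at WT2, and 8.97 and 9.66 at DR2, and was called lower at DR2 against WT2, by -2.25. Its unique-exon entry, a member with 1 probe, measured 4.56 and 5.03 at WT1, 5.49 and 5.42 at DR1, 5.04 and 4.42 at WT2, and 11.99 and 10.63 at DR2, a difference of 6.58. The 2 entries bear the name of the same transcript and yet moved in opposite directions in the second drought, and the cause was not tested.

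Glyma.13G035600 carries a 2OG-FeII_Oxy domain, found in dioxygenases that use iron and oxoglutarate, among them enzymes of hormone synthesis. Its member Glyma.13G035600-1 measured 6.20 and 5.80 at WT1, 5.62 and 5.27 at DR1, 6.05 and 6.06 at WT2, and 11.88 and 10.86 at DR2. The unique-exon entry of the same transcript stood at -1.996 at DR1 and at -1.54 at DR2 against WT2, so that neither reached the 4-fold limit of a call. At Glyma.10G253300 the unique-exon entry is the member, with 7.60 and 7.90 at WT2 and 14.53 and 10.61 at DR2, while Glyma.10G253300-1 measured 6.54 and 6.99 at WT2 and 5.45 and 5.99 at DR2. A single probe reads each of these members of Glyma.12G071700 and Glyma.10G253300, so no second probe bears on them.

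**Figure D4:**
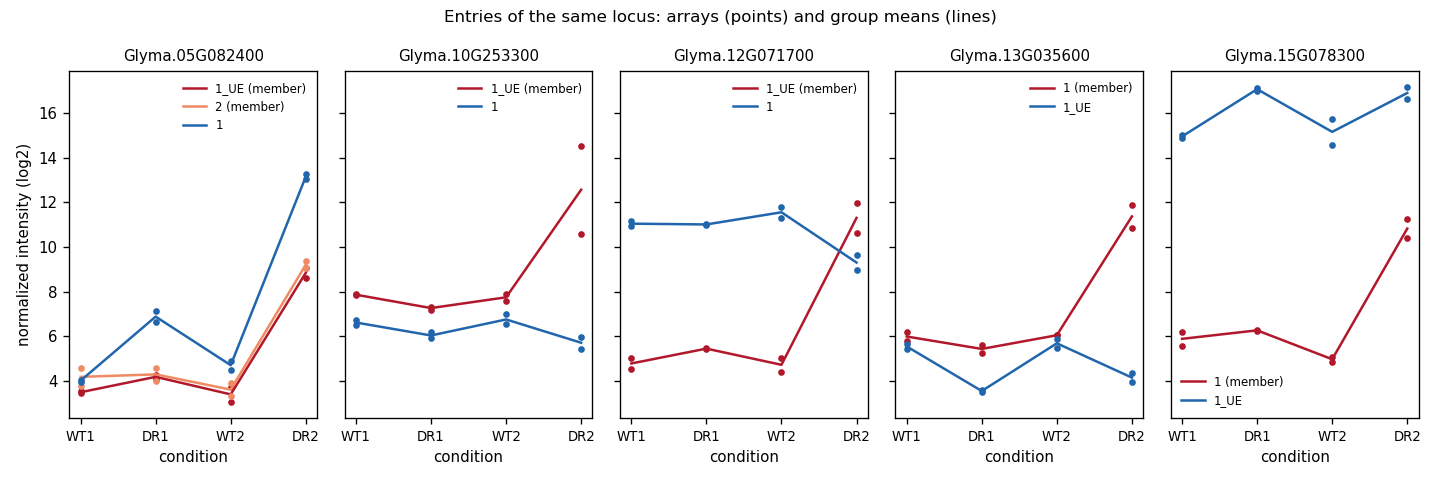
Normalized log2 intensity (vertical axis) in the 4 conditions (horizontal axis) for transcripts and unique-exon entries of 5 loci, with members in red shades and other entries of the locus in blue; points are arrays and lines join group means. The members rise at DR2 only, while the blue entries rise at DR1 (Glyma.05G082400, Glyma.15G078300) or do not rise at DR2 (Glyma.10G253300, Glyma.12G071700, Glyma.13G035600).

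Glyma.15G071300-1_UE belongs to a locus with a DUF3700 domain, a domain of unknown function. It measured 5.92 and 5.65 at WT1, 5.52 and 5.69 at DR1, 5.25 and 5.57 at WT2, and 12.11 and 9.27 at DR2. Transcript Glyma.15G071300-1 of the locus was called higher at DR2 as well, at 11.47 and 11.09 at WT2 and 17.41 and 16.38 at DR2, and missed the rule in the authors' table with 0.84 at DR1 and 3.89 at DR2 against DR1. At 5 of the 7 loci with 2 members, Glyma.02G042500, Glyma.03G238800, Glyma.05G082400, Glyma.07G215400 and Glyma.15G182600, the fitted differences from WT2 of the pair lay within 1 log2 unit of each other. The differences were at least 2.98 and 5.52 at Glyma.05G238100, and at least 7.14 and 5.48 at Glyma.19G169200.

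Several members sat beside each other on a chromosome. Soybean locus names number the loci along a chromosome in steps of 100, and 10 pairs of member loci lay within 1000 of each other, of which 6 were consecutive. On chromosome 3, Glyma.03G201000-1 measured 7.08 and 7.44 at WT2 and 13.95 and 12.57 at DR2, next to Glyma.03G201100-1 above. On chromosome 7, Glyma.07G215400-2 measured 9.94 and 10.45 at WT2 and 15.28 and 15.33 at DR2, and Glyma.07G215500-1 measured 6.32 and 6.10 at WT2 and 12.18 and 11.94 at DR2. This pair had close DR2 replicates, and its members stood 0.74 and 1.06 above WT1 after watering, neither of them called.

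On chromosome 8, Glyma.08G079100-1 rose by 6.86 over WT2 and Glyma.08G079200-1 by 4.61. On chromosome 19, Glyma.19G174100-1 and Glyma.19G174200-1 both had wide DR2 replicates, 11.38 against 9.09 and 10.998 against 8.76. The pair Glyma.12G005000-1 and Glyma.12G005100-1 rose by at least 4.86 and by 5.76 over WT2, and Glyma.02G065700-1 and Glyma.02G065800-1 by 3.97 and 5.05. Of the pairs that are not consecutive, Glyma.01G190400-1 and Glyma.01G190600-1 rose by 4.81 and at least 6.75, Glyma.19G198600-1 and Glyma.19G198800-1 by 5.28 and 4.84, Glyma.07G168600-3 and Glyma.07G169100-1 by at least 5.01 and at least 2.67, and Glyma.05G123700-1 by 2.35. Its partner Glyma.05G123900-1 stood at 1.76, short of a call. Whether probes of neighbouring loci also bind each other's transcript was not examined, since no probe sequences were used here.

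**Figure D5:**
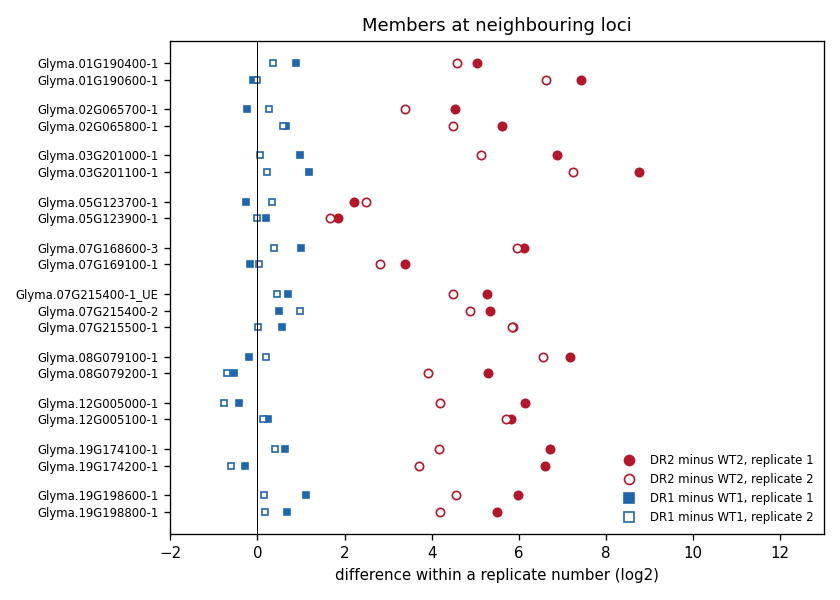
Differences within a replicate number (horizontal axis, log2) for the members of 10 pairs of neighbouring loci (vertical axis, pairs set apart by gaps), with DR2 minus WT2 in red and DR1 minus WT1 in blue, filled for replicate 1 and open for replicate 2. Every red point lies to the right of every blue point of its transcript, and the 2 members at Glyma.05G123700 and Glyma.05G123900 show the smallest red values.

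The loci on either side of a member that are not members themselves were counted too. Of 219 such loci tested, 53 were called higher at DR2 against WT2, or 24.2% beside 13.1% of all transcripts tested, and 38 were called lower, or 17.4% beside 15.2%. At DR2 against DR1, 43 were called higher, or 19.6% beside 6.86%. The median difference of these neighbours from WT2 was 0.36, and 18 of them were over 4.5 higher. Glyma.19G198700-1, between the member loci Glyma.19G198600 and Glyma.19G198800, rose by 7.29 over WT2 and had a DR1 difference of 0.85. Glyma.03G201200-1, after Glyma.03G201100, rose by 7.47 over WT2 and stood at 2.20 at DR1. At the NB-ARC locus on chromosome 5, the nearby Glyma.05G082200-2 was called higher at DR1, by 2.13, and again at DR2, by 4.25 over WT2, and Glyma.05G082500-2 was called higher at DR2, by 2.52 over WT2, with 0.50 at DR1. These values share the arrays of the rule and are given as a description.

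Across the chromosomes, members made up between 0.0997% of the transcripts in the authors' table, on chromosome 18, and 0.462%, on chromosome 19. Chromosome 19 held 13 members, chromosome 12 held 12 and chromosome 13 held 11. Another 4 lay on scaffolds not placed on a chromosome.

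No member was matched by any of 12 lists of drought-related families, which searched for words in the same annotation. The lists looked for zinc finger, chitinase and invertase, among other words. The 3 members listed themselves carry the domain names zf-C2H2_6, Glyco_hydro_18 and Glyco_hydro_100, which hold none of these words, so the lists passed over them by wording. Of the annotated transcripts tested, 75.3% were called at DR1, and 3 of the members are listed in the annotation. The lack of matches is therefore no measure of how many members belong to such families. Late embryogenesis abundant proteins and dehydrins, which protect cells as they dry, had 22 tested transcripts, of which 16 were called higher and 2 lower at DR1, and 13 higher and 2 lower at DR2 against WT2. Abscisic acid synthesis and signalling had 44, with 34 called higher and 7 lower at DR1, and 33 higher and 5 lower at DR2 against WT2. Of 59 heat shock proteins and chaperones, 42 were called higher and 9 lower at DR1, and 26 higher and 9 lower at DR2 against WT2.

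Transcription factors counted 233, with 138 higher and 66 lower at DR1, and 120 higher and 60 lower at DR2 against WT2. Sugar and osmolyte metabolism had 15 higher and 4 lower of 20 in the latter comparison. More transcripts were called lower than higher among transporters and channels, with 24 of 38 called lower at DR2 against WT2, proteases and nucleases with 50 of 92, and lipid transfer and cuticle genes with 34 of 60. In the same comparison protein kinases and receptors were called lower in 75 and higher in 50 of 190, and pathogenesis-related and wound proteins lower in 17 and higher in 11 of 37. Detoxification and glycosyl transfer had 41 higher and 32 lower of 110, and ethylene and jasmonate synthesis 3 higher and 2 lower of 8. Every family list, here and above, draws on an annotation in which 75.3% of tested entries already had a call at DR1. The families were thus not sampled independently of the first drought. No matching share of the annotation, by direction or for DR2 against WT2, is given here. The family counts therefore only describe the lists, and no family response is read from them.

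Leaf markers were present as the tissue label says. The 15 tested transcripts for chlorophyll-binding proteins and the small Rubisco subunit had a log2 of the summed intensity of 20.09 and 20.14 at WT1, 17.92 and 18.15 at DR1, 19.91 and 19.98 at WT2, and 13.31 and 13.55 at DR2. All 15 were called lower at DR2 against WT2, beside 15.2% of all transcripts tested, and 3 of them were not above background on either DR2 array. The 6 seed markers, all of the oleosin, glycinin or conglycinin kind, had such sums of 6.68 on both WT1 arrays, where none was above background, and of 12.12 and 12.19 at DR1, 7.06 and 9.58 at WT2, and 12.68 and 12.89 at DR2, and the only phloem marker was called higher in both droughts. No transcript was listed for nodule or dividing-cell markers. All markers come from the same annotation, of which 75.3% of the tested transcripts were called at DR1. They were thus not picked independently of the first drought, and nothing is read from their calls. In bulk leaf RNA, fewer cells of a type and less RNA per cell cannot be told apart, and the part of these markers in the rise of the members was not tested.

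The 184 transcripts that passed the second-drought limits but were already higher at DR1 were the set most like the members. They had a median of 6.64 at DR2 against WT2, beside 5.47 for the members. Their median at WT2 against WT1 was 0.34, beside -0.03, and 6 of them were called higher there. No member was called higher in that comparison, and 0.387% of all transcripts tested were. The 2 sets were split on DR1 minus WT1, so the WT1 values were part of the selection and nothing is read from these counts. The 2 sets shared 6 loci, and the differences between them were not tested.

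The limits of the rule divide transcripts that hardly differ. At the DR1 limit the members Glyma.07G168600-3, Glyma.16G214300-1 and Glyma.07G215400-2 had differences of 0.73, 0.72 and 0.72 in the authors' table, and Glyma.10G245300-1, Glyma.03G215000-1 and Glyma.20G134000-1, just outside, each had 0.76. At DR2 against DR1 the members Glyma.14G116400-1, Glyma.15G078300-1 and Glyma.07G210300-1 had 4.503, 4.523 and 4.542, and Glyma.15G075700-1, Glyma.08G042800-1 and Glyma.14G188100-1 had 4.49, 4.46 and 4.43. At DR2 against WT2 the members Glyma.12G207400-1, Glyma.07G169100-1 and Glyma.03G173300-1 had 4.51, 4.52 and 4.57, and Glyma.05G032800-1, Glyma.06G082400-2 and Glyma.07G165700-1 had 4.48, 4.48 and 4.47. With the scanner signals normalized again here the rule was met by 148 transcripts, of which 126 were members, or 81.8% of the members and 85.1% of the 148.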

How the data were processed

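The leaf RNA of 8 samples was measured on Agilent single-dye arrays of 178031 spots. Per the file headers, the deposited intensity columns are spot and local background medians from Agilent Feature Extraction 11.5.1.1, and a processed signal with the background already subtracted. The authors also deposited a table of limma-normalized intensities for 60386 transcripts, from which members were chosen. Members and lists were chosen with earlier results of these data known.

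Spot medians were background-corrected with limma 3.58.1 (normexp, offset 0) and quantile normalized. Control spots and 2 to 11 outlier spots per array were left out, and log2 values were averaged over the probes of a transcript. Tested were 55087 of 77681 transcripts, those with a probe called well above background in both replicates of 1 condition or more. A linear model of 4 condition means was fitted over the 8 arrays in R 4.3.3 with lmFit and eBayes, with Benjamini-Hochberg adjustment over all transcripts tested. The 2 replicates are described as independent experiments, and the number of arrays limits the precision. P values rest on a replicate spread pooled over the 4 conditions and moderated by eBayes, so all comparisons of a transcript share the same standard error. Replicates of the members differed by a median of 0.88 at DR2 and 0.24 at DR1. For the members a pooled error therefore understates the spread at DR2 and overstates that at DR1. A lower limit replaces a fold where no WT2 or DR1 array was above background: the mean at DR2 is set against, per array, the higher of the transcript's signal and the lowest signal among probes above background.

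Between 55.2% and 65.2% of probes per array were above background and 0 spots were saturated. On simulated data for DR2 against WT2, 166 of 200 transcripts changed by 3 on the log2 scale were called, with 2 false calls over 55087. Replicate numbers were not treated as pairs, as their deviations correlated by -0.305 to 0.294. Alternatives were the authors' table, the processed signal minus the 75th percentile, an offset of 50, 75th-percentile scaling, the median over probes, no detection filter, leaving out each array, a replicate block, over 4-fold in both replicate numbers, the 4 arrays of a slide, and, added later, only probes above background. Named transcripts were the 12 with the largest rise over WT2 in the authors' table, those at neighbouring loci, the 3 on either side of each limit, and others that the text marks. Domain names came from the study's annotation tables.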

Additional observations from a re-analysis of the deposited data

How the results depend on the processing

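The counts of members called higher were 139 to 154 at DR2 against WT2 and 140 to 154 at DR2 against DR1 over all alternatives run, with the lowest at an offset of 50. Leaving out single arrays gave 152 to 153 and 150 to 153. The count at DR1 against WT1 stayed at 0, and that at WT2 against WT1 was 1 with the processed signal minus the 75th percentile and 0 otherwise; the cause was not tested. With the replicate block the counts were 152, 152, 0 and 0, and the block changed no call of a named transcript. How many transcripts meet the rule depended more on the processing: 327 with the processed signal, of which 114 are members, and 93 at an offset of 50, of which 54 are members, beside 154. Leaving out single arrays gave 112 to 269, the lowest without DR2 replicate 1 and the highest without DR2 replicate 2. Glyma.05G123700-1, Glyma.07G169100-1 and Glyma.16G214300-1 fell short of a call at DR2 against WT2 at an offset of 50, with 1.73, 1.69 and 1.86, and at DR2 against DR1, with 1.73, 1.69 and 1.97. Glyma.16G214300-1 also did so at DR2 against WT2 without WT2 replicate 1, with 1.93, and Glyma.05G123700-1 at DR2 against DR1 without DR2 replicate 2, with 1.99. Glyma.05G123700-1 also fell short in both comparisons with the median over probes. The median of DR2 minus WT2 ran from 4.04 at an offset of 50 to 6.52 with the processed signal, and the DR1 median of the members turned to -0.20 under 75th-percentile scaling and -0.10 with the processed signal. With 2 arrays per condition, replicate spread and a dim signal outside DR2 limit the precision of single members. The 65 members with no probe above background at WT2 have only a lower limit at DR2 against WT2.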
